A study of Homo sapiens with 8 samples.

Results

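The replication-dependent histone genes were taken as the protein-coding genes on chromosomes 1 and 6 whose GENCODE symbol on hg19 began with H2AC, H2BC, H3C or H4C, or was H1-1 to H1-6. This rule found 63 of 20163 protein-coding genes: 6 H1, 16 H2A, 16 H2B, 13 H3 and 12 H4 genes. H3K23su (succinylation of lysine 23 of histone H3) and H3K27ac (acetylation of lysine 27 of histone H3) were profiled by CUT&Tag, in which a transposase tethered to an antibody cuts and tags the DNA beside the mark. HCT15-Pa is the parental line of HCT15, a human colon cancer cell line, and its libraries carried the label DMSO. HCT15-FR is the derived line resistant to 5-fluorouracil (5-FU), an inhibitor of thymidylate synthesis, and its libraries carried the label 20 µg/mL 5-FU. According to the methods, the resistant cells were kept free of drug for a few days before experiments, so that line, long exposure and drug cannot be told apart here. Each line gave 2 libraries for each mark, 8 in all, from 1 parental and 1 resistant line. For each library the deposited list held peak intervals on hg19 with a score, the −log10 of the MACS2 p-value, but no read counts and no depth.

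Replication-dependent histone genes supply the core histones H2A, H2B, H3 and H4 and the linker histone H1 that package newly copied DNA, and they are transcribed mainly in S phase. Most are short, lack introns, lie in dense clusters and give transcripts that end in a conserved stem-loop in place of a poly(A) tail. The H3 genes among them encode the protein that carries lysines 23 and 27, so these loci are at once a template for histone H3 and a place where its marks can be measured. Many H2A and H2B genes are arranged as divergent pairs that share 1 short promoter.

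Members whose transcription start sites (TSSs) lay within 500 kb of each other formed 5 clusters. The largest held 30 genes over 561 kb of chromosome 6 (hg19 chr6:25725790-26286762). Further along chromosome 6 lay a cluster of 5 genes over 16.3 kb (chr6:27099574-27115885) and a cluster of 16 genes over 87.5 kb (chr6:27774707-27862203). Chromosome 1 held a cluster of 10 genes over 77.6 kb (chr1:149782925-149860515) and the isolated pair H2AC25 and H2BC26 (chr1:228644574-228646804). A strict stem-loop pattern, which holds the core CTTTTNAG, was found within 150 bp after the stop codon of 60 members. It was not matched there for H3C6, H2BC10 and H4C13, and the core alone was not searched for.

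The promoters that the results turn on are shown first, each as the 200 bases 5′ of the TSS on the coding strand of hg19. Capitals mark 4 motifs known from histone promoters, searched on both strands: the CCAAT box, the TATA box (TATAAA), the octamer (ATTTGCAT), which is bound by POU2F1, and the H1 box (AAACACA). In the first line the TATA box and its reverse complement overlap, so that the capitals there run on. H3C7 (chr6:26250864-26251063, minus strand), H1-5 (chr6:27835367-27835566, minus strand) and H2AC16 (chr6:27832895-27833094, plus strand) are shown because peaks of both marks were called there in HCT15-Pa and not in HCT15-FR.
H3C7: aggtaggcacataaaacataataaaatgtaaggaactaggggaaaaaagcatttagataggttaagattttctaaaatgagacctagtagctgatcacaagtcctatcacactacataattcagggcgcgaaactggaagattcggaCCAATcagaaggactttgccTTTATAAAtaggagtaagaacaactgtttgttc
H1-5: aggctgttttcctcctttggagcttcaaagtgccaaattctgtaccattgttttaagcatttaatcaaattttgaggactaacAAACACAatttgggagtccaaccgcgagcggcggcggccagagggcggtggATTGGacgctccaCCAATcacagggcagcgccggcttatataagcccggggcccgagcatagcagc
H2AC16: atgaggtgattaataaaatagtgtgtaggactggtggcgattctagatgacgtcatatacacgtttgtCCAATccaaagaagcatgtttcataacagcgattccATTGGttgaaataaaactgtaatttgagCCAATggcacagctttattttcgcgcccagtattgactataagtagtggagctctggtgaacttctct
H3C6 (chr6:26225163-26225362, plus strand) and H4C11 (chr6:27791670-27791869, plus strand) are shown because they had the highest mean H3K23su percentiles of their clusters, and H3C8 (chr6:26271642-26271841, minus strand) because no library held a peak there. The H3K23su peaks counted for H3C6 covered only 213 to 288 bp of its 1 kb windows. Those of HCT15-FR ended at 26224640 and 26224650, and that of the second HCT15-Pa library at 26224575, all upstream of the printed stretch. H4C12 (chr6:27799339-27799538, minus strand) is set beside H4C11 because the 2 promoters are near copies.
H3C6: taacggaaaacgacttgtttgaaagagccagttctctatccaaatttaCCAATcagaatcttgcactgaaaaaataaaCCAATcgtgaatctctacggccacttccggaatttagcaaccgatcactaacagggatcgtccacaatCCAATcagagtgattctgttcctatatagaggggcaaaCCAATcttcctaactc
H3C8: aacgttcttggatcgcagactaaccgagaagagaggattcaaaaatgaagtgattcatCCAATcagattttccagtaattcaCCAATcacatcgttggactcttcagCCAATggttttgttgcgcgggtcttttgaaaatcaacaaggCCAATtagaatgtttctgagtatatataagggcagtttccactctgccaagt
H4C11: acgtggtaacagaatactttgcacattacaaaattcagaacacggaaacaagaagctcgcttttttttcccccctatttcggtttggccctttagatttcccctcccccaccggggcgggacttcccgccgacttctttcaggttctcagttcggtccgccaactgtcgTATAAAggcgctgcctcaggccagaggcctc
H4C12: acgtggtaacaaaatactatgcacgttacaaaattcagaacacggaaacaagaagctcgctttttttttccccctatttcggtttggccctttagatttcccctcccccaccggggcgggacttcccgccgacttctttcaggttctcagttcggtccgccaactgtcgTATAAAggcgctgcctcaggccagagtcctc
The whole stretch between the 2 start sites of a divergent pair is shown for H2BC4 and H2AC6 (chr6:26124155-26124399) and for H2AC14 and H2BC14 (chr6:27782556-27782799), on the plus strand, because such pairs share their peaks.
H2BC4/H2AC6: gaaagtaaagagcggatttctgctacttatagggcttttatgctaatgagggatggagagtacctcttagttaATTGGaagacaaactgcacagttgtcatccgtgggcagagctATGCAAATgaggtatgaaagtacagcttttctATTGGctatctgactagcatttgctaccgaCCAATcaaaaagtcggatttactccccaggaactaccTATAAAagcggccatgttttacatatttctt
H2AC14/H2BC14: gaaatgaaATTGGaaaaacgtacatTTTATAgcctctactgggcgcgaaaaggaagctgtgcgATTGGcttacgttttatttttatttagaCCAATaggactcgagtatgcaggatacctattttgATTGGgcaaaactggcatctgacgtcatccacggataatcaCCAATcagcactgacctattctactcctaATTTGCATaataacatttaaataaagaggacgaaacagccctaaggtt

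In a window of 300 bp, from 250 bp before to 50 bp after each TSS, 55 of 63 members (87.3%) held a CCAAT box, against 35.9% of all protein-coding genes. The 8 members without it were all H4 genes, since 4 of 12 H4 genes and every H1, H2A, H2B and H3 gene held one. A TATA box was found in 42 members (66.7%, against 9.80% of all genes). The octamer was found in 24 members (38.1%, against 1.58%), 12 of 16 H2A and 12 of 16 H2B genes. The H1 box was found in 9 members (14.3%, against 4.21%), among them all 6 H1 genes. These matches describe the letters in the window and do not show binding. Of the 11 members with no peak in any library 10 held a CCAAT box, 6 a TATA box, 5 the octamer and 2 the H1 box. Of the 40 members with a peak in all 8 libraries 33 held a CCAAT box, 26 a TATA box, 11 the octamer and 4 the H1 box. Of the 9 members with peaks in some libraries, other than H3C7, H1-5 and H2AC16, all 9 held a CCAAT box and a TATA box, 7 the octamer and 2 the H1 box. These counts are descriptions and were not tested.

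A gene was counted as carrying a mark in a library when a peak of that library's list came within 1 kb of its TSS. A missing peak means that none was detectable at the authors' threshold, not that the mark was absent. H3K23su peaks lay at 51 and 47 of the 63 histone genes in the 2 HCT15-Pa libraries, and at 44 and 45 in the 2 HCT15-FR libraries. H3K27ac peaks lay at 50 and 52 in HCT15-Pa, and at 47 and 46 in HCT15-FR. Every HCT15-FR library thus had fewer histone genes with a peak than either HCT15-Pa library of the same mark. The mean for H3K23su was 49 ± 2.83 genes in HCT15-Pa and 44.5 ± 0.707 in HCT15-FR (SD, n = 2 per line), a difference of -4.5 genes (two-sided exact permutation test, p = 0.333). For H3K27ac it was 51 ± 1.41 and 46.5 ± 0.707 (n = 2 per line), again a difference of -4.5 genes (two-sided exact permutation test, p = 0.333). For H3K23su the difference was -2.5 genes without the first HCT15-Pa library, and 0 when a peak had to cover the TSS base itself. With 2 libraries against 2, 0.333 is the smallest p this test can give, so the design cannot reach 0.05. The labels do not say that the libraries came from separate cultures, so the spread between them may be technical.

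**Figure D1:**
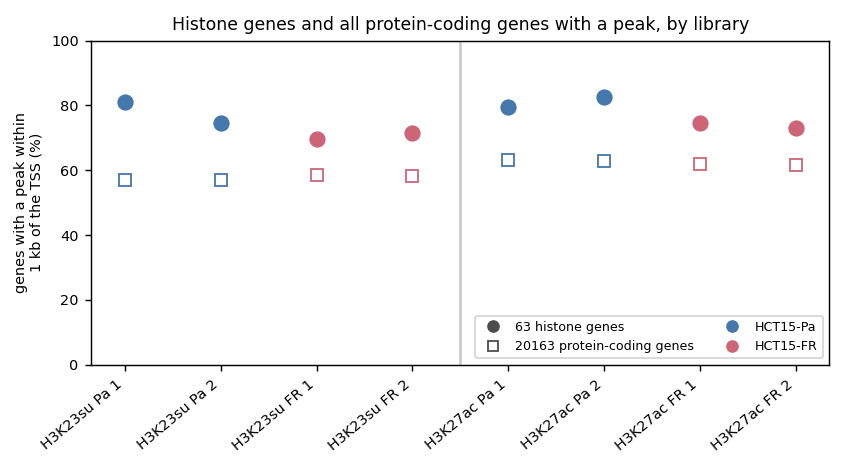
Percent of the 63 histone genes (filled circles) and of the 20163 protein-coding genes (open squares) with a peak within 1 kb of the TSS, 1 point per library, on a y axis from 0 to 100%; blue is HCT15-Pa and red HCT15-FR. The histone genes lie between 69.8 and 82.5%, above all genes in each library, and lower in HCT15-FR than in HCT15-Pa for both marks.

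As a share, 81.0 and 74.6% of the histone genes carried an H3K23su peak in HCT15-Pa, and 69.8 and 71.4% in HCT15-FR. Over all protein-coding genes the H3K23su shares were 57.1 and 57.1%, and 58.4 and 58.2%, so the HCT15-FR libraries were 1.18 percentage points higher there. For H3K27ac the histone genes gave 79.4 and 82.5% in HCT15-Pa, and 74.6 and 73.0% in HCT15-FR. All genes gave 63.1 and 63.0%, and 61.9 and 61.5%, a difference of -1.38 percentage points. The histone genes went the way of all genes for H3K27ac and the opposite way for H3K23su, and whether these differences themselves differ was not tested. The lists of HCT15-FR were not shorter: the H3K23su lists held 66134 and 65364 peaks in HCT15-Pa and 68365 and 67827 in HCT15-FR, and the H3K27ac lists 71819 and 70600, and 73834 and 76676. Of 10 markers of intestinal epithelium, 6 to 8 had an H3K23su peak and 7 to 9 an H3K27ac peak, with more in HCT15-FR for both marks, and CDX1, a transcription factor of the gut epithelium, had peaks of both marks in HCT15-FR only. Among 10 markers of fibroblasts, blood and liver, peaks lay only at COL1A1 (H3K27ac in 4 libraries) and SPI1 (5 libraries).

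Across genes, an H3K23su peak in all 4 libraries of that mark was found at 41 histone genes, beside 52.2% of all protein-coding genes, and none in any of the 4 at 11 histone genes, beside 36.8%. For H3K27ac these were 46 histone genes, beside 56.6% of all genes, and 11 histone genes, beside 30.6%. A peak in all 8 libraries was found at 40 histone genes, beside 10370 of the 20163 protein-coding genes. The 11 histone genes without a peak in either mark were the same genes, so that no library held a peak there, as was the case for 29.3% of all genes. They were H1-1, H1-6, H2AC1, H2BC1, H2BC3, H2BC9, H2BC10, H3C3, H3C8, H3C12 and H4C7. H1-6, H2AC1 and H2BC1 are known as the germ-line histone genes of the testis. Of these 11 genes 10 lay in the 30-gene cluster, and H3C12 in the 16-gene cluster.

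No histone gene was marked in HCT15-FR alone, that is with a peak in its 2 libraries and none in the 2 of the parental line. This pattern was found at 1.83% of all genes for H3K23su, at 1.22% for H3K27ac and at 0.387% for both marks together. The opposite pattern, in which HCT15-Pa alone was marked, was found at 3 histone genes for H3K23su, beside 1.48% of all genes, and at 3 for H3K27ac, beside 2.08%. They were the same genes in both marks, H3C7, H1-5 and H2AC16, beside 0.774% of all genes with this pattern in both marks. H3C7 encodes histone H3, H1-5 a linker histone and H2AC16 a histone H2A.

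At H3C7, whose TSS is at chr6:26250863 on the minus strand, the H3K23su peaks of HCT15-Pa scored 6.15 and 6.37 and reached to 27 and 198 bp of the TSS on its gene side. They were 562 and 351 bp wide and stood at percentiles 86.9 and 88.3 of their lists. The H3K27ac peaks of HCT15-Pa scored 5.64 and 4.36, at percentiles 72.0 and 49.6, and reached to 29 and 116 bp of the TSS. In HCT15-FR the nearest H3K23su peaks began 6637 and 6567 bp upstream of the TSS, and the nearest H3K27ac peaks 6716 and 6589 bp upstream. All 4 HCT15-FR libraries thus shared a peak at this upstream position, where no HCT15-Pa library had a peak, a position chosen after its values were seen. Within 20 kb of H3C7 lay 3 further histone genes. H4C7 and H2BC9 had no peak within 1 kb in any library. H2BC9 lay just outside that limit: the HCT15-Pa peaks at H3C7 came to 1006 and 1177 bp of its TSS for H3K23su and to 1008 and 1095 bp for H3K27ac, and with 2 kb windows it too had peaks of both marks in HCT15-Pa only. H1-3 had a peak in 1 HCT15-Pa library of each mark only. The H1-3 peaks scored 6.38 for H3K23su and 3.3 for H3K27ac, in libraries of different replicate number.

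**Figure D2:**
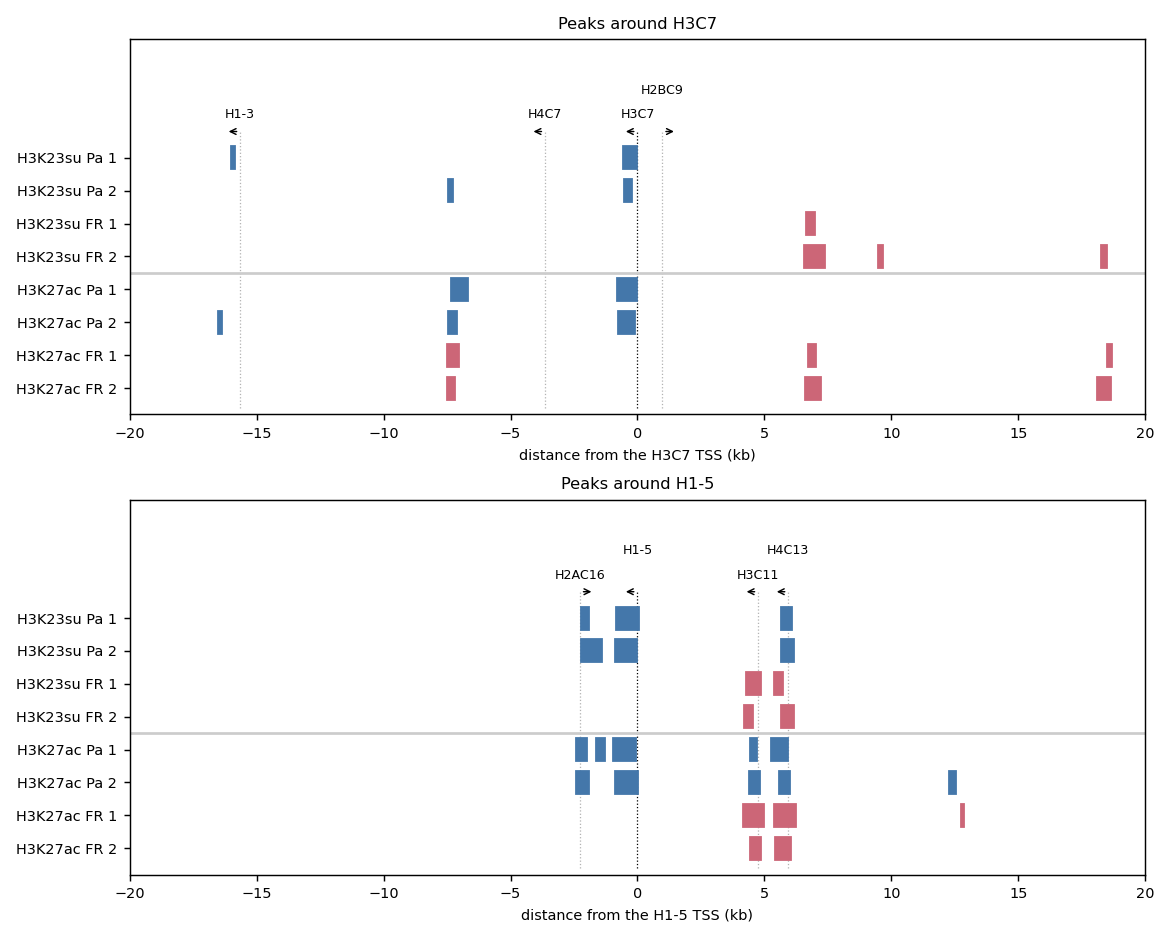
Peaks (bars, blue HCT15-Pa, red HCT15-FR) in the 8 libraries around H3C7 and H1-5, plotted as distance from the TSS in kb on the x axis, with 1 line per library. Dotted lines mark TSSs and arrows the direction of transcription; peaks lie at H3C7, H1-5 and H2AC16 in every parental library and no resistant one, while H3C11 and H4C13 have peaks within 1 kb in all 8.

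H1-5 and H2AC16 are convergent neighbours in the 16-gene cluster. At H1-5 (TSS chr6:27835366, minus strand) the H3K23su peaks of HCT15-Pa scored 6.29 and 4.43 at percentiles 88.0 and 52.7, and the H3K27ac peaks scored 5.16 and 4.92 at percentiles 66.4 and 61.7. All 4 covered 869 to 918 bp of the 2001 bp window. At H2AC16 (TSS chr6:27833095, plus strand) the H3K23su peaks scored 4.51 and 4.24 and the H3K27ac peaks 4.52 and 4.73, all near the middle of their lists at percentiles 45.3 to 58.1. In HCT15-FR the nearest peaks to H1-5 began 4261 and 4189 bp upstream for H3K23su, and 4167 and 4423 bp upstream for H3K27ac. Those peaks lay at H3C11, the H3 gene next in the cluster, which had peaks of both marks within 1 kb in all 8 libraries. In HCT15-Pa the H3K23su peaks counted for H3C11 were those at H4C13, which covered 92 and 103 bp of the H3C11 window. With windows of 500 bp H3C11 had H3K23su peaks in HCT15-FR only. In this stretch the HCT15-FR libraries lacked peaks at H1-5 and H2AC16 and held them at H3C11 and H4C13.

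By family, the number of H4 genes with a peak was 11 of 12 in each of the 8 libraries, and H4C7 had none. Of the 6 linker H1 genes, 4 and 3 had an H3K23su peak in HCT15-Pa and 2 and 2 in HCT15-FR, and 3 and 4 had an H3K27ac peak in HCT15-Pa and 2 and 2 in HCT15-FR. The 2 H1 genes with peaks in every library were H1-2 and H1-4. The mean difference for H1 was -1.5 genes in each mark (two-sided exact permutation test, n = 2 per line, p = 0.333). The H2A counts were 15, 13, 12 and 13 of 16 for H3K23su, in the order HCT15-Pa 1 and 2 and HCT15-FR 1 and 2, and 15, 15, 14 and 14 for H3K27ac. The H2B counts were 11, 10, 10 and 10 of 16 for H3K23su and 11, 12, 11 and 11 for H3K27ac, and overlapped between the lines in both marks. The H3 counts were 10, 10, 9 and 9 of 13 for H3K23su and 10, 10, 9 and 8 for H3K27ac.

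**Figure D3:**
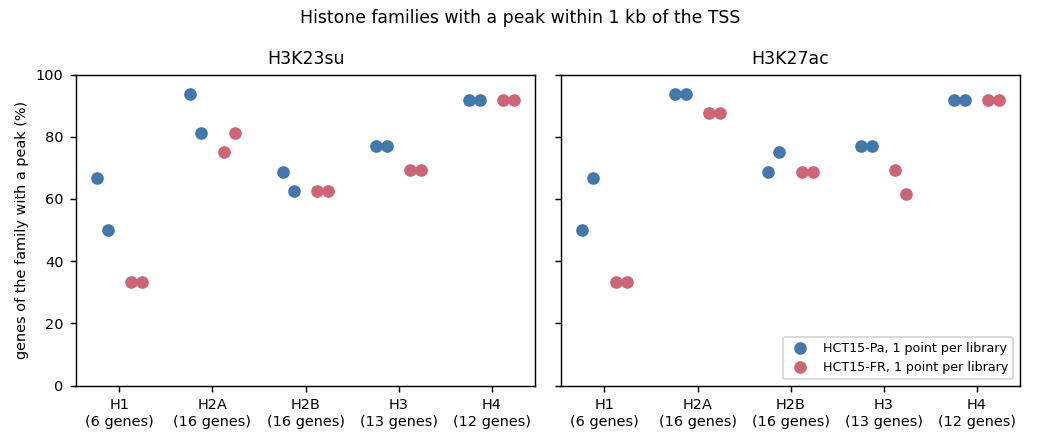
Percent of the genes of each histone family with a peak within 1 kb of the TSS (y axis, 0 to 100%), 1 point per library, blue HCT15-Pa and red HCT15-FR, for H3K23su (left) and H3K27ac (right). H4 stands at 11 of 12 genes in every library, and H1 shows the widest gap, at 3 or 4 of 6 genes in HCT15-Pa and 2 of 6 in HCT15-FR.

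By cluster, the 5-gene cluster on chromosome 6 and the pair on chromosome 1 had peaks of both marks at every member in every library. The 10-gene cluster on chromosome 1 had H3K27ac peaks at all 10 members in every library, and H3K23su peaks at 10, 8, 10 and 8. The 30-gene cluster had H3K23su peaks at 20, 17, 16 and 17 members and H3K27ac peaks at 18, 20, 17 and 16. The 16-gene cluster had H3K23su peaks at 14, 15, 11 and 13 members and H3K27ac peaks at 15, 15, 13 and 13. The lower counts in HCT15-FR thus lay in the 30-gene and the 16-gene cluster on chromosome 6. Inside the spans lay 9 further protein-coding genes, of which HIST2H2AA3 and HIST1H4B are histone genes under older symbols that the rule did not match. The transporter genes SLC17A1, SLC17A2, SLC17A3 and SLC17A4 had no peak in any library, HFE, a regulator of iron uptake, had peaks in 7, and TRIM38 had peaks of both marks in the HCT15-Pa libraries only.

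Members are not independent, because a single peak can lie within 1 kb of several start sites. The 63 windows fell into 42 separate stretches, of which 23 held 1 gene and 19 were shared by 40 genes. The members with a peak therefore rested on 45, 43, 41 and 42 distinct H3K23su peaks, and on 40, 44, 35 and 34 distinct H3K27ac peaks. The H2A and H2B genes formed 10 divergent pairs with start sites 194 to 251 bp apart. In 9 of the pairs both genes had the same presence or absence of a peak in every library, and the exception was H2AC17 and H2BC17.

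The strength of a peak was expressed as the percentile of its score within its own list, since raw scores rise with depth. The median percentile of the strongest peak at the histone genes that had one was 68.1 and 66.1 in HCT15-Pa and 68.1 and 61.4 in HCT15-FR for H3K23su. For H3K27ac it was 76.2 and 72.1, and 78.7 and 75.3. The medians over all genes with a peak were between 85 and 87.2 in the 8 libraries. Peaks at histone genes were thus more frequent than at genes in general, but stood lower in the lists. The 41 histone genes with H3K23su peaks in all 4 libraries had a mean percentile of 65.7 ± 3.33 in HCT15-Pa and 64.7 ± 1.65 in HCT15-FR (SD, n = 2 per line), a difference of -1.04 (two-sided exact permutation test, p = 1). For the 46 histone genes with H3K27ac peaks in all 4 libraries these means were 75.2 ± 0.56 and 76.8 ± 0.545 (n = 2 per line), a difference of 1.59 (two-sided exact permutation test, p = 0.333). Over all genes with peaks in all 4 libraries the differences were 3.35 for H3K23su and -1.02 for H3K27ac.

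**Figure D4:**
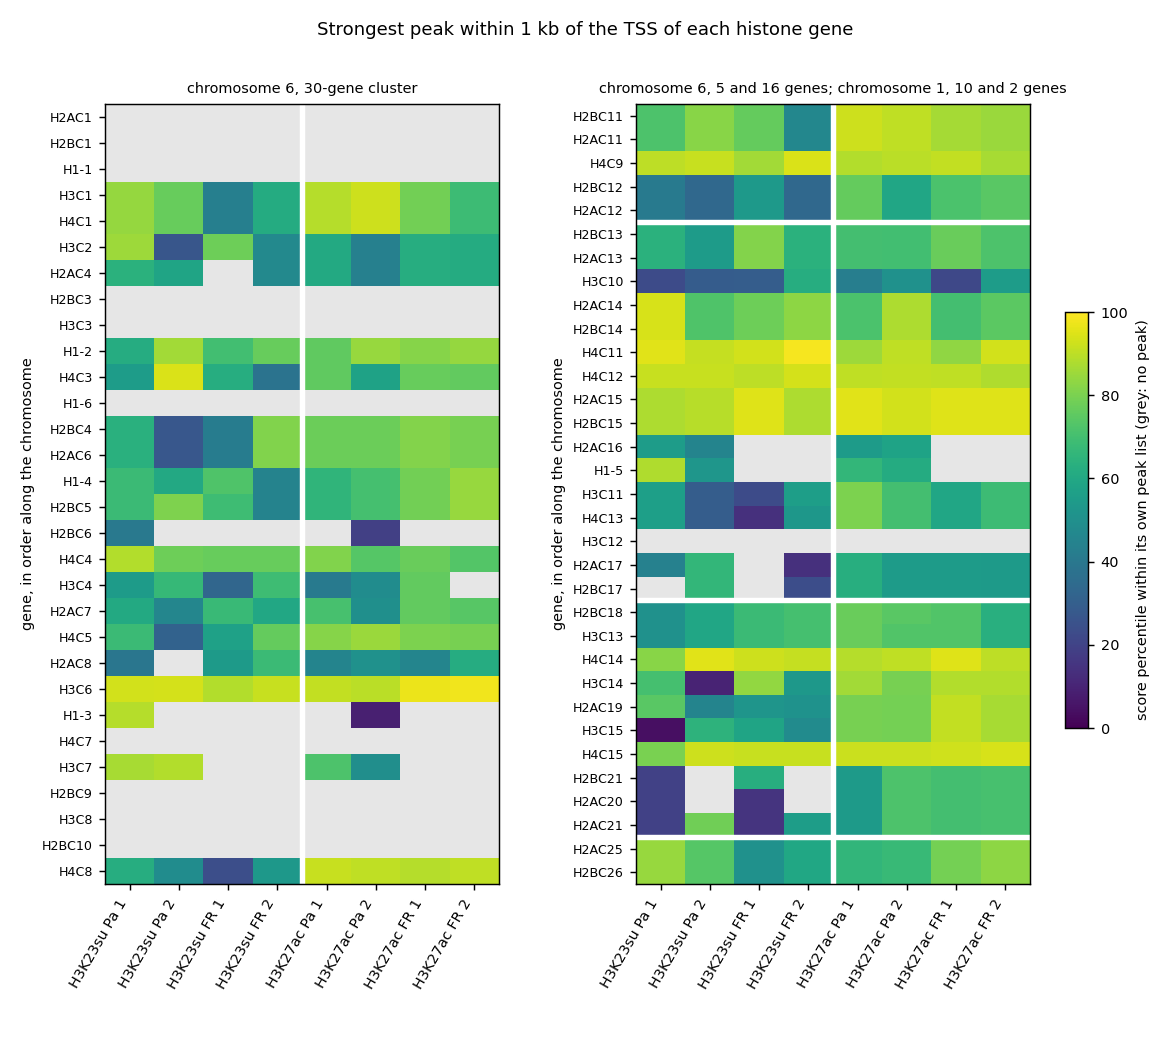
Percentile, within its own list, of the strongest peak within 1 kb of the TSS (colour scale 0 to 100, grey for no peak) for each histone gene (rows, in chromosome order, white lines between clusters) in the 4 H3K23su and 4 H3K27ac libraries (columns). Grey rows fall mostly in the 30-gene cluster, and H3C7, H1-5 and H2AC16 are grey in the 4 HCT15-FR columns alone.

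In the 4 clusters of 5 or more genes the member with the highest mean H3K23su percentile was an H4 gene or H3C6. The highest mean percentiles over the 4 libraries were 94.8 at H4C11 in the 16-gene cluster, 91.6 at H3C6 in the 30-gene cluster, 90.6 at H4C9 in the 5-gene cluster and 90.3 at H4C14 in the 10-gene cluster. The lowest, among members with peaks in all 4 libraries, were 35.9 at H3C10, 47.1 at H4C8, 40.7 at H2BC12 and H2AC12 and 42.2 at H2AC21, in the same order of clusters. For H3K27ac the highest were 94.7 at H2AC15 and H2BC15, 93.9 at H3C6, 88.9 at H4C9 and 92.8 at H4C15, and the lowest 42.6 at H3C10, 50.9 at H2AC8, 70.4 at H2BC12 and H2AC12 and 66.9 at H2BC21, H2AC20 and H2AC21. The genes named together took their values from the same peaks. The paired genes H2AC25 and H2BC26 shared 1 value in each mark, 67 for H3K23su and 73.8 for H3K27ac. H3C6 and H4C9 led, and H3C10 and the pair H2BC12 and H2AC12 trailed, their clusters in both marks.

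The H3 genes, which encode the histone that bears both marks, varied widely among themselves. H3C6 had H3K23su percentiles of 93.0 and 93.6 in HCT15-Pa and 88.3 and 91.6 in HCT15-FR, and H3K27ac percentiles of 90.7 and 89.8, and 97.0 and 97.9. The H3C6 peaks covered only 213 to 288 bp of its window for H3K23su and 425 to 480 bp for H3K27ac. The lines did not overlap at H3C6 in either mark, with HCT15-Pa above HCT15-FR for H3K23su and below it for H3K27ac. H3C1 had H3K23su percentiles of 84.1 and 76.6 in HCT15-Pa and 43.1 and 61.4 in HCT15-FR, and H3K27ac percentiles of 89.0 and 92.3, and 78.7 and 68.7. Both marks were thus lower at H3C1 in the 2 HCT15-FR libraries, with differences between the means of -28.1 percentile points for H3K23su and -17 for H3K27ac. The bases of the H3C1 window under H3K23su peaks were 986 and 1015 in HCT15-Pa and 218 and 225 in HCT15-FR. H4C1, which encodes histone H4, is the next gene downstream of H3C1 and takes its percentiles from the same peaks.

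H3C10 had the lowest mean percentiles of its cluster in both marks, with 22.8 and 29.2 in HCT15-Pa and 29.5 and 62.3 in HCT15-FR for H3K23su, and 42.9 and 50.6, and 21.6 and 55.3, for H3K27ac. H3C11 had H3K23su percentiles of 56.5 and 29.6, and 22.8 and 56.2, which overlapped, and H3K27ac percentiles of 80.1 and 70.2, and 59.0 and 68.5, which were lower in HCT15-FR. In HCT15-Pa its H3K23su percentiles came from the peaks at H4C13, and so did its H3K27ac percentiles in all 4 libraries. The H3K27ac peaks at H3C11 itself scored 3.63 and 4.55 in HCT15-Pa and 4.99 and 4.2 in HCT15-FR, which overlapped. The H3K23su cover of H3C11 went from 92 and 103 bp in HCT15-Pa to 937 and 466 bp in HCT15-FR. These genes showed no common direction between the lines. H3C2 ranged from 26.9 to 85.4 for H3K23su and from 43.7 to 62.4 for H3K27ac, and its 2 HCT15-Pa libraries differed from each other by more than the lines did for H3K23su. H3C4 had H3K23su peaks in all 4 libraries, at percentiles 33.0 to 68.9, and lacked an H3K27ac peak in 1 HCT15-FR library. H3C3, H3C8 and H3C12 had no peak.

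The H3 genes of the chromosome 1 cluster, H3C13, H3C14 and H3C15, had peaks of both marks in all libraries. H3C13 had H3K23su percentiles of 50.4 and 59.0 in HCT15-Pa and 68.3 and 70.4 in HCT15-FR, from a peak that also served H2BC18. H3C14 ranged from 9.9 to 83.7 and H3C15 from 4.17 to 64.8 for H3K23su, with no separation of the lines. Their H3K27ac percentiles were higher in HCT15-FR, at 86.2 and 79.6, and 88.3 and 88.3, for H3C14 and at 79.4 and 79.1, and 90.7 and 87.0, for H3C15. These values are uncertain, because 50% or more of the 2001 bp window of 7 members of this cluster (H2BC18, H3C13, H4C14, H3C14, H2AC19, H3C15 and H4C15) was matched elsewhere in the genome at 98% identity or more. The authors kept uniquely mapped reads only, and H4C14 and H4C15 have identical promoters.

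Over all members with peaks in the 4 libraries of a mark, the percentiles of the 2 lines did not overlap, with HCT15-FR higher, at 5 of 41 for H3K23su, beside 28.5% of all genes, and with HCT15-Pa higher at 6 of 41, beside 15.0%. For H3K27ac HCT15-FR was higher at 17 of 46, beside 22.0% of all genes, and HCT15-Pa at 10 of 46, beside 28.0%. The largest differences for H3K23su with HCT15-FR higher were 19.8 at H3C10 and 14.6 at H2BC18 and H3C13, and with HCT15-Pa higher -28.1 at H3C1 and H4C1 and -24 at H2AC25. At H3C10 the higher HCT15-Pa library stood at 29.2 and the lower HCT15-FR library at 29.5. The difference there came mostly from the second HCT15-FR library, at 62.3. For H3K27ac the largest differences with HCT15-FR higher were 14.6 at H2AC25, H2AC7 and H2BC26. With HCT15-Pa higher they were -17 at H3C1 and H4C1 and -11.4 at H3C11. The H3C11 value came from the peaks at H4C13, which had the same difference. Percentiles that did not overlap between the lines and went opposite ways in the 2 marks were found at 4 of 40 members, beside 8.74% of all genes with peaks in all 8 libraries.

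The width of the marked region was measured as the bases of the 2001 bp window under peaks. For H3K27ac the mean over the 63 histone genes was 857 and 897 bp in HCT15-Pa and 1010 and 976 bp in HCT15-FR. The means were 877 ± 28.3 and 993 ± 24.3 bp (SD, n = 2 per line), 116 bp higher in HCT15-FR (two-sided exact permutation test, p = 0.333), beside 29 bp over all genes. Fewer histone genes had an H3K27ac peak in HCT15-FR, yet more of their windows was covered. For H3K23su the mean was 595 and 579 bp in HCT15-Pa and 582 and 623 bp in HCT15-FR, 587 ± 11.1 and 602 ± 28.7 bp, which overlapped (n = 2 per line, difference 15.4 bp, two-sided exact permutation test, p = 0.667). Over all genes H3K23su cover was 93.7 bp higher in HCT15-FR.

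Per gene, H3K27ac cover did not overlap between the lines, with HCT15-FR higher, at 25 of 46 members, beside 32.7% of all genes, and with HCT15-Pa higher at 5 of 46, beside 11.0%. H2AC17 had 692 and 1052 bp in HCT15-Pa and 2001 and 1717 bp in HCT15-FR, and H2BC21 had 1169 and 1100 bp in HCT15-Pa and the full 2001 bp in both HCT15-FR libraries. For H3K23su HCT15-FR was higher at 9 of 41 members, beside 44.5% of all genes, and HCT15-Pa at 6 of 41, beside 6.13%. H4C1 had 1425 and 1328 bp under H3K23su in HCT15-Pa and 670 and 833 bp in HCT15-FR, and H2AC25 had 625 and 618, and 876 and 1388 bp. The median width of the strongest H3K27ac peak at members was 1082 and 1080 bp in HCT15-Pa and 1742 and 1636 bp in HCT15-FR, and the histone genes with a peak shared 35 and 34 distinct peaks in HCT15-FR against 40 and 44 in HCT15-Pa.

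**Figure D5:**
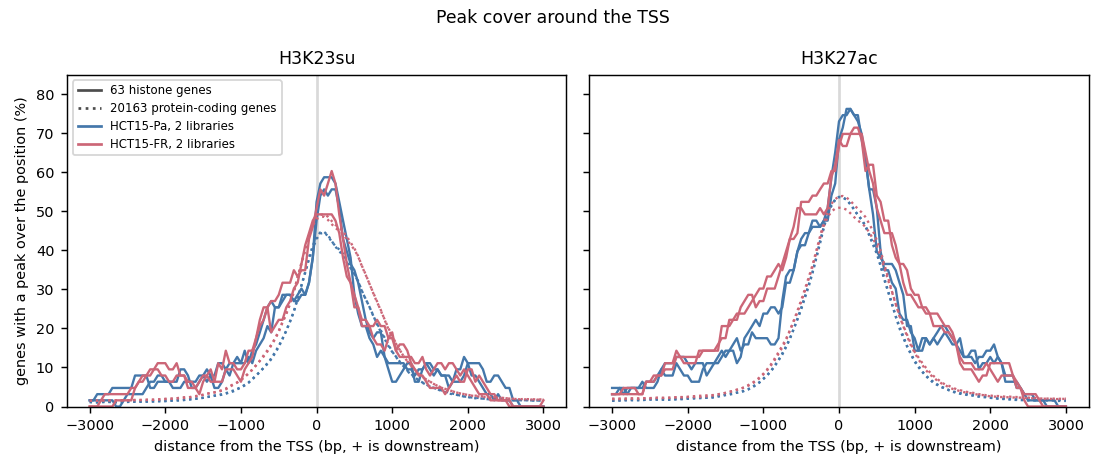
Percent of the 63 histone genes (solid) and of 20163 protein-coding genes (dotted) with a peak over each position within 3 kb of the TSS, for H3K23su (left) and H3K27ac (right), 1 line per library, blue HCT15-Pa and red HCT15-FR. Histone genes reach 49.2 to 60.3% for H3K23su and 69.8 to 76.2% for H3K27ac at or just downstream of the TSS.

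Along the genes, cover was highest at or just downstream of the TSS. H3K27ac reached 76.2 and 76.2% of the histone genes in HCT15-Pa and 71.4 and 69.8% in HCT15-FR, at 100 to 300 bp past the TSS. H3K23su reached 58.7 and 55.6% in HCT15-Pa, at 100 to 250 bp, and 49.2 and 60.3% in HCT15-FR. All protein-coding genes reached 44.5 to 49.2% for H3K23su and 50.9 to 53.9% for H3K27ac, at 0 to 100 bp. For H3K27ac the position of highest cover lay further into the gene for the histone genes than for all genes in the 4 libraries, while for H3K23su several positions were tied.

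Between the marks, 46.8 ± 3.1 histone genes had an H3K23su peak and 48.8 ± 2.75 an H3K27ac peak (SD, n = 4 libraries per mark), a difference of -2 (two-sided exact permutation test, p = 0.4), where this test could go as low as 0.0286. The libraries of a mark come from both lines, so the SD includes the difference between the lines, and the test did not keep the lines apart. The difference was -12 when a peak had to cover the TSS base and -10.8 with the stronger 50% of each list (two-sided exact permutation test, n = 4 libraries per mark, p = 0.0286 for both). H3K27ac peaks were called with the broad setting and H3K23su peaks were not, so mark and setting cannot be told apart.

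Genes that act on histone genes and their products were followed as a list of 42 in 5 roles. All 9 genes of histone gene transcription, among them NPAT, the coactivator of histone loci, HINFP, which binds H4 promoters, and CDK2, had peaks of both marks in every library. So did all 10 genes of histone mRNA 3′ end processing, among them SLBP, which binds the stem-loop, all 4 genes of histone mRNA decay and all 8 histone chaperones. None of the 42 had peaks in both libraries of a line and in neither library of the other, in either mark. The 11 genes listed as replication-independent histones held the exceptions, among them these. H2AJ had no peak in any library. H1-10 had peaks in 4 libraries and MACROH2A2 in 7. Of the 42 genes 38 had peaks in all 8 libraries, against 40 of the 63 histone genes of the clusters and 10370 of the 20163 protein-coding genes.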

How the data were processed

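The authors aligned CUT&Tag reads to hg19 with Bowtie2, removed duplicates with SAMtools, kept properly paired, uniquely mapped reads and called peaks per library with MACS2, with the broad option for H3K27ac. Whether a control entered the calls is not given in the sources used here. The deposited scores are the −log10 of the MACS2 p-value, and the lists give neither counts nor depth, so no interval for counting error was computed. The spike-in DNA named in the protocol was not used here.

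Start sites came from GENCODE release 44 on hg19 and were those of MANE Select transcripts for all members. Other genes without such a transcript took the start of the Ensembl canonical transcript, or else of the gene record. A peak counted when at least 1 base lay within 1000 bp of the TSS. Scores were ranked within each list. Python 3.11.15, numpy 2.4.6, pandas 2.3.3, pysam 0.24.0, samtools 1.23.1 and BLAST+ 2.17.0 were used, and the code was tested on simulated peaks. Near copies were BLAST matches of 100 bp or more at 98% identity or more.

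Lines were compared over libraries by two-sided exact permutation tests. Shares over all 20163 protein-coding genes gave the background. Named with values were the H3 genes, members with peaks in 1 line only or in no library, the highest and lowest member of each cluster, and up to 3 members per direction and mark with the largest differences among those whose lines did not overlap. Pathway genes were named where they lacked a peak in some library, and a few others by role alone. A result for 1 gene of that list is not reported here. The members and lists were chosen with earlier results of these data known. Alternatives were other windows, start sites, peak minimums, members and libraries.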

Additional observations from a re-analysis of the deposited data

Results flagged for a closer look

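At 4 histone genes the score percentiles of the lines did not overlap in either mark and went opposite ways in the 2 marks. The difference between the marks was not itself tested. This pattern was found at 4 of 40 members (10.0%), near the 8.74% of all genes with peaks in all 8 libraries. H2BC18, an H2B gene of the chromosome 1 cluster, was higher in HCT15-FR by 14.6 percentile points for H3K23su, and its H3K27ac difference was -7.92. Its window is matched in full elsewhere in the genome, and the part of this in the result was not tested. H2AC25 and H2BC26, which share 1 promoter and 1 peak, both had a difference of -24 for H3K23su and 14.6 for H3K27ac. H3C6 had a difference of -3.39 for H3K23su and 7.24 for H3K27ac, at percentiles of 88.3 or more in every library.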

How the results depend on the processing

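With 2 libraries per line no comparison of the lines can reach 0.05, so the alternatives bear on direction and size only. H1-5, H2AC16 and H3C7 had peaks of both marks in HCT15-Pa only also with windows of 500 bp and 2 kb, with any annotated start, with lists of equal length and with a common minimum score. With the stronger 50% of each list H2AC16 was lost from this set for H3K23su and H3C7 for H3K27ac. When a peak had to cover the TSS base, the difference in members with an H3K23su peak moved to 0, and HCT15-Pa-only members fell to 1 for H3K23su (H4C12) and became 2 for H3K27ac (H2AC16 and H2BC5), so that H1-5 and H3C7 were lost there in both marks. HCT15-Pa-only members gained elsewhere were H3C1 with 500 bp and H2AC4 with the stronger 50%, for H3K23su, and H2BC9 with 2 kb in both marks. HCT15-FR-only members for H3K23su became 1 with 500 bp (H3C11), 2 over the TSS base (H2BC26 and H2BC5) and 1 with the stronger 50% (H2AC8), and for H3K27ac 1 with 2 kb (H3C12) and 1 over the TSS base (H2BC14). The difference in percentile for H3K23su turned to 0.463 with the stronger 50%. The difference in bases covered by H3K23su turned to -11.2 bp without the 7 members whose window is mostly copied elsewhere, an alternative chosen after seeing the data. The difference between the marks became -12 over the TSS base and -10.8 with the stronger 50% (two-sided exact permutation test, n = 4 libraries per mark, p = 0.0286 for both).

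Leaving out 1 library at a time, the difference in members with a peak ranged from -6.5 to -2.5 for H3K23su (-2.5 without the first HCT15-Pa library), from -5.5 to -3.5 for H3K27ac, and between the marks from -3.42 to -0.917 (-3.42 without the first HCT15-Pa H3K23su library, -0.917 without the second HCT15-Pa H3K27ac library and -1.08 without the first HCT15-FR H3K23su library). H3K23su cover ranged from -4.92 bp (without the second HCT15-FR library) to 35.7 bp, and the H3K23su percentile from -2.8 to 1.31 (without the first HCT15-Pa library). HCT15-FR-only members for H3K23su ranged from 0 to 1 (1 without the first HCT15-Pa library). HCT15-Pa-only members ranged from 3 to 5 for H3K23su, 5 without the second HCT15-Pa or the second HCT15-FR library, and from 3 to 5 for H3K27ac, 5 without the first HCT15-Pa library. The labels give both lines replicate numbers 1 and 2, but with 2 pairs these share only a number: the deviations of same-numbered libraries correlated at -0.037 over 41 members for H3K23su and 0.183 over 46 for H3K27ac. With a replicate block the difference in members with a peak stayed at -4.5 in both marks (exact sign-flip permutation test, 2 pairs, p = 0.5, the smallest possible). Members with an H3K27ac peak (from -0.5 with the stronger 50% to -4.5), H3K27ac cover (18.3 bp with 500 bp windows to 195 bp with 2 kb) and H3K27ac percentile (1.01 to 4.5) kept their direction under all alternatives. Depth, which the lists do not hold, limits every statement on a missing peak.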

Other observations

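Of the genes that drive histone gene transcription, CCNE1, which encodes cyclin E1, the partner of CDK2 at the start of S phase, showed lower percentiles in HCT15-FR in both marks. It was chosen after its values were seen. Its H3K23su percentiles were 67.5 and 77 in HCT15-Pa and 27.2 and 32.5 in HCT15-FR, and its H3K27ac percentiles were 69.5 and 73, and 34 and 58.4. The lines did not overlap in either mark. Among all genes with peaks in the 4 libraries of a mark, HCT15-Pa was higher without overlap at 15.0% for H3K23su and 28.0% for H3K27ac. CCNE2, which encodes the related cyclin E2, had H3K23su percentiles of 95.1 and 83, and 94 and 90.6, which overlapped, and H3K27ac percentiles of 88.7 and 87.4, and 78.6 and 77.9, which were lower in HCT15-FR. NPAT, the target of cyclin E and CDK2 at the histone loci, stood between 92.8 and 98.7 in all 8 libraries.

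Of the genes listed as replication-independent histones, H2AX, whose protein marks DNA breaks, had H3K23su percentiles of 48.5 and 63.6 in HCT15-Pa and 86.9 and 86.2 in HCT15-FR, while its H3K27ac percentiles of 92.8 and 86.2, and 93.7 and 89.8, overlapped. H3-3A and H3-3B both encode H3.3, an H3 variant that is also made outside S phase. H3-3B ranged from 8 to 71 for H3K23su and from 91.3 to 93.2 for H3K27ac, and H3-3A from 76.1 to 88.4 and from 90.7 to 91.4. H2AX, H3-3A and H3-3B were likewise chosen after their values were seen. Among all genes with H3K23su peaks in the 4 libraries, HCT15-FR was higher without overlap, as at H2AX, at 28.5%.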
